A study of Homo sapiens with 12 samples.

Results

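The genes described here are 10 chemokine genes of the CXC, CC and CX3C families, namely CXCL9, CXCL10, CXCL11, CXCL16, CX3CL1, CCL2, CCL5, CXCL1, CXCL2 and CXCL3. They were chosen by symbol to set chemokines known to be induced by interferon gamma (IFN-γ) beside chemokines known as targets of the transcription factor NF-κB. Of the 10, 8 had a row among the 4918 genes of the expression table, and CXCL9 and CXCL11 were not analysed here. The cells were A375, an established human malignant melanoma line, and RNA from 12 samples was sequenced. The study asked how SB-3CT, an inhibitor of the matrix metalloproteinases MMP2 and MMP9, changes transcription in these cells with and without IFN-γ. The 4 groups of 3 samples each were Control (labelled as treated with none), SB-3CT, IFN-γ, and SB-3CT with IFN-γ (SB-3CT+IFN-γ), and treatment lasted 24 h. The labels give the A375 line in all groups and no dose, and they do not say whether the 3 samples of a group were separate cultures, so the p-values below measure the spread between these samples, which may be technical.

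Chemokines are small secreted or membrane-bound proteins that guide white blood cells along a gradient by binding G protein-coupled receptors. CXCL9, CXCL10 and CXCL11 bind CXCR3, a receptor of activated T cells and natural killer cells, and they are classic products of IFN-γ signalling. CXCL1, CXCL2 and CXCL3 bind CXCR2, a neutrophil receptor, and together with CXCL8 they are classic products of NF-κB signalling, often expressed by melanoma cells without any added stimulus.

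The measure was FPKM, the fragments counted per kilobase of transcript and scaled to all mapped fragments of a sample, so levels of different genes can be compared per unit of transcript length. Differences below are on the deposited log2(FPKM + 1) scale, where a gene well under 1 FPKM shows a smaller difference than its FPKM ratio would give. The number of reads was not given, but the steps that single fragments leave in the lowest values placed the depth of the 12 samples between 87.1% and 150% of the mean of the controls. No gene list independent of these data was at hand to check the treatment labels. All 5 listed melanoma markers had a row and summed to between 692 and 816 FPKM per sample. CD63 made up most of this sum, with group means from 619.5 (IFN-γ) to 698.1 FPKM (SB-3CT). The marker DCT was near 0, with group means from 0.0638 (SB-3CT+IFN-γ) to 0.278 FPKM (Control). AXL, CSPG4 and EDNRB lay between these levels. Of 11 leukocyte markers 7 had a row, and their sum, led by CD68, was 20 to 23.3 FPKM in Control, 23.8 to 26.1 with SB-3CT, 27.3 to 32.3 with IFN-γ and 28.6 to 31 with both. CD68, CSF1R and CD53 of these were called higher with IFN-γ, alone and on top of SB-3CT, as were 5 of the members described below, and their part in those results was not tested. CD3D, CD8A and CD79A, which define T and B cells, were at 0 in all 3 IFN-γ samples, apart from 0.0488 FPKM of CD8A in replicate 3. In the other groups they were not all at 0. The highest values were 0.096 FPKM for CD3D (SB-3CT+IFN-γ), 0.080 for CD8A (Control) and 0.306 for CD79A (SB-3CT). Of the other markers, 4 fibroblast markers and 3 endothelial markers each summed to less than 0.7 FPKM in every sample. In RNA from a whole culture, fewer expressing cells and less RNA per cell cannot be told apart.

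Promoter sequences are shown because the motifs tied to the IFN-γ and NF-κB routes are read from this region, and because CXCL1, CXCL2 and CXCL3 turned out to be close copies of each other there. They were taken from RefSeq (GRCh38.p14), whose table held 4 of the 8 members and CXCL8 and covers 250 bases before to 50 bases after the start of each gene. The entries for CXCL16, CX3CL1, CCL2 and CCL5 were not in the table. Capitals mark every match, on either strand, to 2 short motifs: the core of the interferon-stimulated response element (ISRE), TTCNNTTTC, and an NF-κB core, GGNNNTTCC, where N is any base. Both strands were searched, and the 2 motifs did not overlap in these windows. The CXCL10 window runs from -230 to -101, counted from the start of the gene (chr4:76023598-76023727, minus strand).

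CXCL10: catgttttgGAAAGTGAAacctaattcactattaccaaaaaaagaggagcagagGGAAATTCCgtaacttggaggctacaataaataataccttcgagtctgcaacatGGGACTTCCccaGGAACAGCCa

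The windows of the CXCR2 ligand genes run from -100 to -31, at chr4:73869293-73869362 (plus strand) for CXCL1, chr4:74099226-74099295 (minus strand) for CXCL2, chr4:74038720-74038789 (minus strand) for CXCL3 and chr4:73740469-73740538 (plus strand) for CXCL8.

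CXCL1: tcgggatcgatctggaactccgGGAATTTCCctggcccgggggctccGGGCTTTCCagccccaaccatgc

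CXCL2: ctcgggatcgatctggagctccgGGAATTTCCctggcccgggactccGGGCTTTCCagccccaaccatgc

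CXCL3: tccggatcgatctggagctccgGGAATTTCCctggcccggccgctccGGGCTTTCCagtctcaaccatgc

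CXCL8: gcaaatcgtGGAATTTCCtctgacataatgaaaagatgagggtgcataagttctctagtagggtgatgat

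The CXCL10 window held an ISRE core match at -221 to -213 and NF-κB core matches at -176 to -168, -122 to -114 and -110 to -102. CXCL1 and CXCL3 held NF-κB core matches at -78 to -70 and -53 to -45, CXCL2 held them at -77 to -69 and -53 to -45, and CXCL8 at -91 to -83. Outside the printed windows, ISRE core matches also lay at -217 to -209 in CXCL2 and at -233 to -225 in CXCL3, and none lay in the 300-base entries of CXCL1 and CXCL8. The gamma-activated site, TTCNNNGAA, had no match in any of the 5 entries. Over all 35116 promoters of the table, 8.11% held the ISRE core, 7.66% the gamma-activated site and 20.1% the NF-κB core, so each match describes letters and not a bound site. In the 100 bases before the start, CXCL1 and CXCL2 were identical at 95 bases, CXCL1 and CXCL3 at 90, and CXCL10 at between 45 and 53 bases with each of the other 4 genes.

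After IFN-γ, 5 of the 8 members rose and 0 fell against Control, where 8.46% of all genes tested were called higher and 11.0% lower. The 5 were CXCL10, CXCL16, CX3CL1, CCL2 and CCL5. The median difference of the 8 members was 1.00 on the log2 scale, and that of all 4918 genes was -0.02. CXCL1, CXCL2 and CXCL3 did not pass the test in limma, and at an unadjusted p under 0.05 there were 6 members higher and 0 lower. With SB-3CT in both groups, SB-3CT+IFN-γ against SB-3CT, the same 5 members were higher and CXCL1 and CXCL3 lower, that is 5 higher and 2 lower against a background of 7.85% higher and 32.7% lower. The members' median was 0.92 and that of all genes -0.11. These comparisons share no sample, whereas IFN-γ and SB-3CT were both set against the same 3 controls.

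SB-3CT without IFN-γ changed a single member, CXCL1, which was higher than in Control, against a background of 5.37% higher and 6.87% lower. This background moved when a single sample was left out. Over the whole table, 602 genes were called with all samples and 912 without SB-3CT replicate 1. Between 73 and 88 were called without Control replicate 1, 2 or 3 or SB-3CT replicate 2 or 3. The cause was not tested. With IFN-γ present, SB-3CT gave 2 members higher (CXCL10 and CCL2) and 1 lower (CX3CL1), while 6.41% of all genes were called higher and 31.5% lower. The median of the members was 0.06 without IFN-γ, where all genes had -0.01, and -0.01 with IFN-γ, where all genes had -0.09. The difference between both SB-3CT effects, tested as an interaction over the 12 samples, was positive for 2 members and negative for 4, against 4.74% and 17.6% of all genes. The genes lower in SB-3CT+IFN-γ outnumbered the higher ones across the whole table, and the median of the 3177 genes with a mean of at least 1 FPKM stood at -0.20 against IFN-γ and -0.21 against SB-3CT, but at -0.04 for IFN-γ and -0.03 for SB-3CT against Control. After median-ratio scaling, which sets this shift to about 0, the SB-3CT+IFN-γ against IFN-γ calls split into 15.5% higher and 16.5% lower, those against SB-3CT into 13.4% and 11.1%, those of IFN-γ against Control into 11.8% and 10.7% and those of the interaction into 7.77% and 5.59%. Values that this scaling turned or ended are given with the genes.

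**Figure D1:**
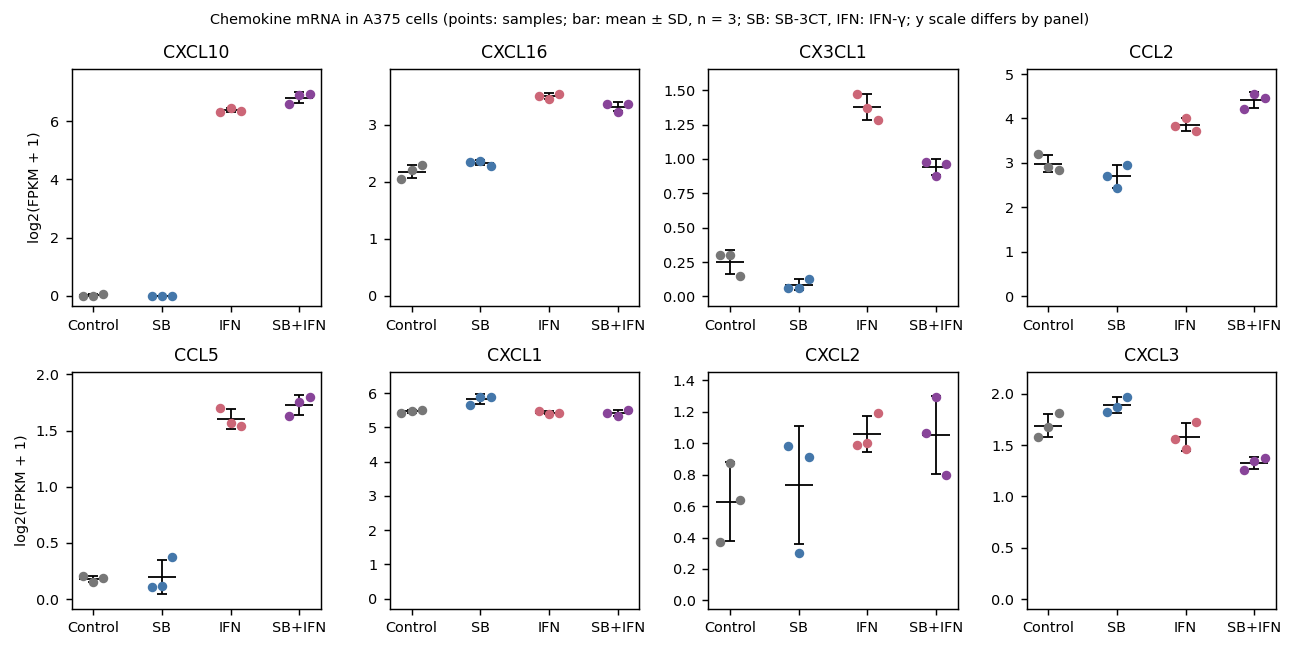
Expression of the 8 chemokine genes in A375 cells, with log2(FPKM + 1) on the vertical axis (scale set per panel) and the 4 groups on the horizontal axis, points for samples and bars for mean ± SD (n = 3). CXCL10, CXCL16, CX3CL1, CCL2 and CCL5 sit higher in all 6 samples with IFN-γ than in all 6 without, which CXCL1, CXCL2 and CXCL3 do not.

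CXCL10 recruits T cells that carry CXCR3, and it was the CXCR3 ligand with a row. It lies at chr4:76942271-76944650 (hg19, minus strand, 4 exons). Its level was listed at 0, 0 and 0.05 FPKM in the controls and at 0 in all 3 SB-3CT samples. With IFN-γ it was 78.7, 86.2 and 80.3 FPKM, and with SB-3CT and IFN-γ it was 96.5, 117 and 123 FPKM. The gene thus went from at or near 0 in 6 samples to the highest level of any member in the other 6, and the groups did not overlap. The log2 difference was 6.35 (SE 0.06, adjusted p = 9.973e-08, limma with Benjamini-Hochberg adjustment over all genes), which ranked 2 among all 4918 genes. In SB-3CT+IFN-γ against SB-3CT it was 6.81 (adjusted p = 5.563e-07) and ranked 1. Since the groups without IFN-γ were listed at 0 in 5 of 6 samples, no FPKM ratio is given.

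SB-3CT added to IFN-γ raised CXCL10 further. All 3 SB-3CT+IFN-γ samples lay above all 3 IFN-γ samples, with means of 112 ± 13.7 and 81.8 ± 3.97 FPKM (SD, n = 3). The FPKM ratio was 1.37 and the log2 difference 0.44 (SE 0.09, adjusted p = 0.00874), and adjusted p was 0.0543 without IFN-γ replicate 1 and 0.0508 without IFN-γ replicate 3. Under median-ratio scaling the difference was 0.68, so the direction was the same. The interaction was 0.47 (adjusted p = 0.0159). CXCL10 lies inside ART3, a gene on the other strand, and the strand setting of the libraries is not given in the sources used here, so reads of the overlapping stretch cannot be told apart. ART3 stood at 4.26, 5.73 and 4.30 FPKM in Control and at 3.44, 3.07 and 3.32 with SB-3CT, where CXCL10 was at or near 0. With IFN-γ it was 10.6, 9.75 and 10.6 (log2 difference 0.98 against Control, adjusted p = 0.00224). With SB-3CT and IFN-γ it was 6.59, 7.05 and 7.80, where CXCL10 was higher.

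CXCL16 and CX3CL1 (fractalkine) are the chemokines made as membrane proteins with a mucin stalk, which ADAM10 and ADAM17 can cleave to release the soluble form. CXCL16, the ligand of CXCR6, lies at chr17:4636828-4643223 (hg19, minus strand, 6 exons) and overlaps MED11 and ZMYND15 on the other strand. It was 3.14, 3.59 and 3.88 FPKM in the controls and 4.09, 4.17 and 3.88 with SB-3CT. It was 10.4, 9.98 and 10.7 with IFN-γ and 9.33, 8.34 and 9.33 with SB-3CT and IFN-γ. IFN-γ raised it 2.93-fold in FPKM (log2 difference 1.33, SE 0.08, adjusted p = 0.000146), and with SB-3CT in both groups the rise was 2.22-fold (0.99, adjusted p = 0.00026). The SB-3CT+IFN-γ samples all lay below the IFN-γ samples, yet the difference of -0.19 (SE 0.07, adjusted p = 0.0707) missed the threshold and was 0.031 under median-ratio scaling and 0.062 under quantile normalization. The interaction was -0.34 (adjusted p = 0.036), and it was -0.15 with adjusted p = 0.389 under median-ratio scaling. Its adjusted p was also over the threshold without 8 of the 12 samples, each left out in turn, at values up to 0.0852 (without IFN-γ replicate 3).

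CX3CL1, the ligand of CX3CR1 and an adhesion molecule for monocytes, natural killer cells and T cells, lies at chr16:57406389-57418956 (hg19, plus strand, 3 exons). The controls had 0.231, 0.234 and 0.110 FPKM and the SB-3CT samples 0.0450, 0.0423 and 0.0942. With IFN-γ it reached 1.78, 1.59 and 1.43 FPKM, and with SB-3CT and IFN-γ 0.974, 0.833 and 0.950. No group overlapped another, and both groups with SB-3CT lay below their counterparts without it. The rise with IFN-γ was 8.35-fold in FPKM (log2 difference 1.13, SE 0.07, adjusted p = 0.000204). SB-3CT lowered it in the presence of IFN-γ to 0.574 of its level (-0.44, SE 0.08, adjusted p = 0.00506), and the difference stayed below 0 under median-ratio scaling (-0.31) and quantile normalization (-0.24), past the threshold in both. Without IFN-γ the difference was -0.17 (SE 0.05, adjusted p = 0.0632), and it passed without Control replicate 3 (adjusted p = 0.0488). The interaction of -0.27 (adjusted p = 0.0438) is tied to the scale: with a pseudocount of 0.1 in place of 1 it was 0.11 (adjusted p = 0.838), and the threshold was missed under median-ratio scaling, under quantile normalization and without 11 of the 12 samples, each left out in turn, with adjusted p up to 0.0978 (without Control replicate 3).

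The CC chemokines attract mononuclear cells. CCL2, the main ligand of CCR2 on monocytes, lies at chr17:32582293-32584227 (hg19, plus strand, 3 exons). It was expressed without any stimulus, at 8.19, 6.53 and 6.13 FPKM in the controls and 5.54, 4.40 and 6.74 with SB-3CT. IFN-γ gave 13.3, 15.2 and 12.2 FPKM, and SB-3CT with IFN-γ gave 17.6, 22.6 and 21.0. The groups overlapped only between Control and SB-3CT. IFN-γ raised CCL2 1.95-fold (log2 difference 0.88, SE 0.12, adjusted p = 0.0046), and on top of SB-3CT it raised it 3.67-fold (1.71, SE 0.15, adjusted p = 0.000708). SB-3CT gave -0.28 without IFN-γ (95% interval -0.64 to 0.07, adjusted p = 0.254) and 0.55 with it (SE 0.11, adjusted p = 0.00706, 1.5-fold). The interaction was 0.84 (SE 0.20, adjusted p = 0.0154), the 8th highest of 4918 genes, and CCL2 was 0.78 higher in SB-3CT+IFN-γ than in IFN-γ under median-ratio scaling.

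CCL5 (RANTES), which attracts T cells and other leukocytes, lies at chr17:34198495-34207797 (hg19, minus strand, 4 exons), where a long non-coding gene overlaps it on the other strand. It was low without IFN-γ, at 0.152, 0.109 and 0.138 FPKM in the controls and 0.0762, 0.0837 and 0.294 with SB-3CT. With IFN-γ it was 2.26, 1.96 and 1.91 FPKM, and with SB-3CT and IFN-γ 2.10, 2.37 and 2.49. The samples with IFN-γ stood far above those without, and within each of these sets of 6 the groups overlapped. The rise with IFN-γ was 15.4-fold in FPKM (log2 difference 1.42, SE 0.06, adjusted p = 2.338e-05) and 15.3-fold with SB-3CT in both groups (1.53, adjusted p = 0.000197), and the latter ratio was 29.0 without SB-3CT replicate 3. SB-3CT gave 0.02 (adjusted p = 0.894) without IFN-γ, and -0.069 without SB-3CT replicate 3. With IFN-γ it gave 0.12 (95% interval -0.08 to 0.33, adjusted p = 0.329), which passed the threshold at 0.29 under median-ratio scaling (adjusted p = 0.0308) and 0.40 under quantile normalization (adjusted p = 0.0119).

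The NF-κB type members attract neutrophils through CXCR2. CXCL1 (chr4:74735110-74737025, hg19, plus strand) was the most abundant chemokine of unstimulated cells among the 8, at 42.1, 43.3 and 44.1 FPKM. IFN-γ gave 43.8, 40.8 and 41.6 FPKM, and the groups overlapped. The difference was -0.04 with a 95% interval of -0.14 to 0.07 (adjusted p = 0.61), and 0.0036 under median-ratio scaling. SB-3CT alone gave 49.3, 58.6 and 58.7 FPKM, all above the controls. This rise was 1.29-fold (log2 difference 0.35, SE 0.07, adjusted p = 0.0265), but 5 of the 6 fits that left out a sample put adjusted p between 0.0961 and 0.11, and only the fit without SB-3CT replicate 1 kept the call. With SB-3CT and IFN-γ it was 41.9, 39.5 and 44 FPKM. Against IFN-γ that was a difference of -0.01 (95% interval -0.14 to 0.13, adjusted p = 0.935), which turned to 0.23 under median-ratio scaling (adjusted p = 0.0188). Against SB-3CT it was -0.40 (SE 0.08, adjusted p = 0.0107), which became -0.15 (adjusted p = 0.325) under median-ratio scaling.

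CXCL2 (chr4:74962757-74964913, hg19, minus strand) was called in no comparison. Control samples had 0.294, 0.833 and 0.559 FPKM and SB-3CT samples 0.974, 0.233 and 0.885. With IFN-γ it was 0.981, 1.01 and 1.28 FPKM, and with both agents 1.09, 1.46 and 0.737. The IFN-γ samples did not overlap the controls, and the difference was 0.43 (SE 0.13, adjusted p = 0.0715). Its adjusted p was 0.0401 both without Control replicate 2 and with a robust variance prior. With SB-3CT and IFN-γ it differed from IFN-γ by -0.01 (95% interval -0.31 to 0.30), a sign that both other scalings turned to 0.12 and 0.18.

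CXCL3 (chr4:74902306-74904524, hg19, minus strand) had 2.00, 2.20 and 2.51 FPKM in the controls and 1.94, 1.75 and 2.30 with IFN-γ, a difference of -0.11 (adjusted p = 0.508). SB-3CT gave 2.54, 2.65 and 2.93 FPKM, above every control, with a difference of 0.20 (adjusted p = 0.191). SB-3CT with IFN-γ gave 1.40, 1.55 and 1.59 FPKM, below every other sample. Against SB-3CT this was a fall to 0.558 of the level (-0.56, SE 0.07, adjusted p = 0.00233). Against IFN-γ the difference was -0.25 (SE 0.09, adjusted p = 0.0679), which was 0.0055 under quantile normalization. It passed the threshold with a filter at 1 FPKM (adjusted p = 0.0385), in a single fit of all samples (0.0376), without the variance trend (0.0417) and without IFN-γ replicate 2 (0.0352). The interaction was -0.45 for CXCL3 (adjusted p = 0.0249) and -0.36 for CXCL1 (adjusted p = 0.0208), and under median-ratio scaling adjusted p was 0.108 and 0.406. Left out in turn, 5 of the 12 samples put the adjusted p of the CXCL3 interaction over the threshold (up to 0.0617, without IFN-γ replicate 3), and a single sample did so for CXCL1 (0.0505, without IFN-γ replicate 1). CXCL1, CXCL2 and CXCL3 share stretches of up to 97 bases between their transcripts (CXCL2 and CXCL3), and 14.4% of the 31-base words of CXCL1 also occur in CXCL2, so a part of their reads may have been split between them and the values of the less abundant CXCL2 and CXCL3 are uncertain to that extent.

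**Figure D2:**
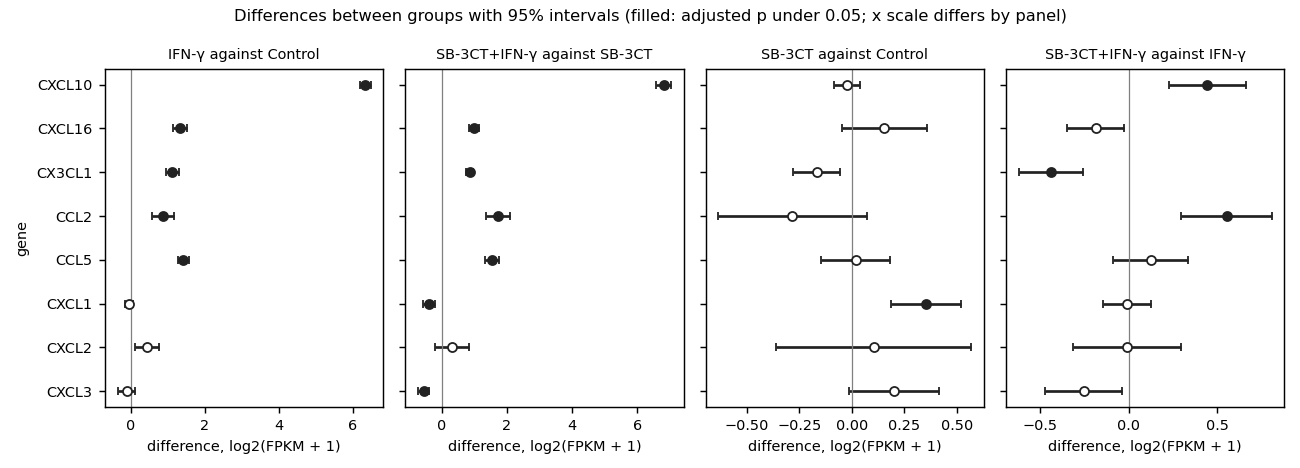
Differences on the log2(FPKM + 1) scale (horizontal axis, scale set per panel) of the 8 chemokine genes (vertical axis) in 4 comparisons, with 95% intervals and filled points for an adjusted p under 0.05 in limma. IFN-γ raised 5 members with and without SB-3CT, and SB-3CT with IFN-γ gave CXCL10 and CCL2 higher and CX3CL1 lower.

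The order of the genes by FPKM changed with IFN-γ. In the controls it ran from CXCL1 (43.2) through CCL2 (6.95), CXCL16 (3.54), CXCL3 (2.23), CXCL2 (0.562), CX3CL1 (0.192) and CCL5 (0.133) to CXCL10 (0.0167), and of the neighbours in this order CX3CL1 and CCL5 overlapped. With IFN-γ it ran from CXCL10 (81.8) through CXCL1 (42.0), CCL2 (13.6), CXCL16 (10.4), CCL5 (2.05), CXCL3 (2.00) and CX3CL1 (1.60) to CXCL2 (1.09). Here CCL5 overlapped CXCL3 and CXCL3 overlapped CX3CL1. With SB-3CT the order of the controls held down to CXCL2 (0.697), which overlapped CCL5 (0.151), which in turn overlapped CX3CL1 (0.0605). With SB-3CT and IFN-γ the first 4 genes kept the order seen with IFN-γ, from CXCL10 (112) to CXCL16 (9.00). They were followed by CCL5 (2.32), CXCL3 (1.51), CXCL2 (1.09) and CX3CL1 (0.919), the last 3 overlapping in turn.

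Summed over the 8 genes, chemokine mRNA was 56.1, 56.8 and 57.5 FPKM in the controls and 62.6, 70.2 and 73.5 with SB-3CT. It was 153, 159 and 152 FPKM with IFN-γ and 171, 194 and 203 with SB-3CT and IFN-γ. The 4 groups did not overlap. CXCL1 alone made up 76.0% ± 0.865 of the sum in the controls and 80.7% ± 2.47 with SB-3CT (SD, n = 3), and its share was 27.2% ± 1.43 with IFN-γ and 22.2% ± 2.11 with both. CXCL10 took 52.9% ± 1.51 with IFN-γ and 59.1% ± 2.30 with both. The ratio of CXCL10 to CXCL1, which a scaling of whole samples leaves as it is, was 1.80, 2.12 and 1.93 with IFN-γ and 2.30, 2.97 and 2.78 with SB-3CT and IFN-γ, so that the SB-3CT+IFN-γ samples were again all higher. The exact permutation test of 3 against 3 samples cannot go below p = 0.1, and no such test was made of these ratios.

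**Figure D3:**
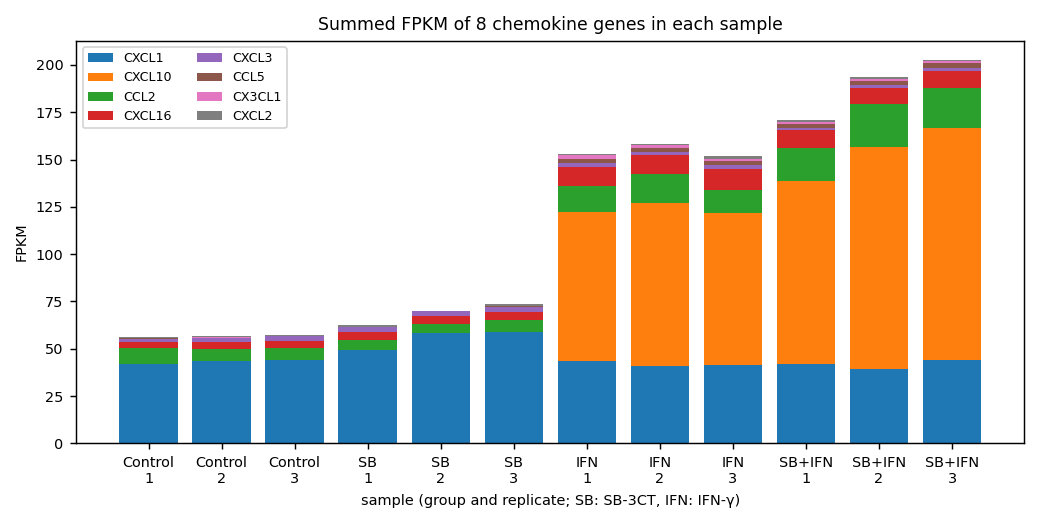
Stacked bars of FPKM (vertical axis, from 0) for the 8 chemokine genes in each of the 12 samples (horizontal axis). CXCL1 fills most of the bars of the 6 samples without IFN-γ, and CXCL10 is added on top of it in the 6 samples with IFN-γ, where the sums run from 152 to 203 FPKM.

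**Figure D4:**
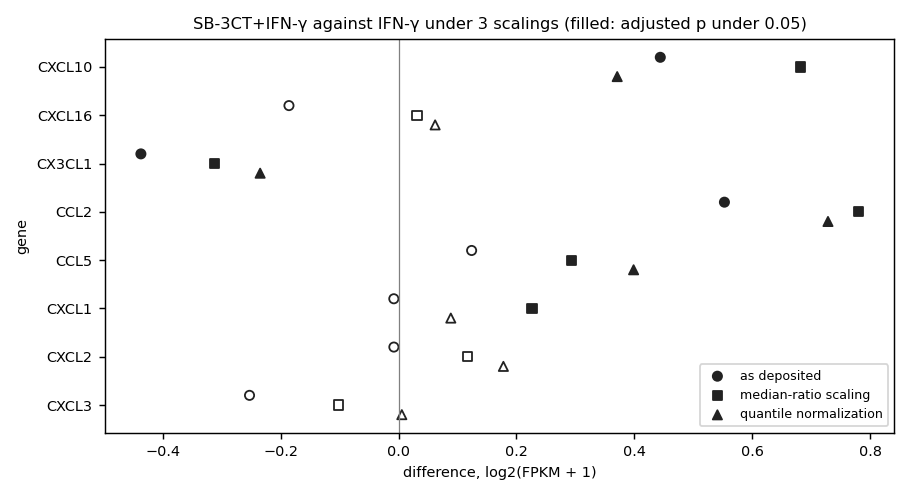
The difference between SB-3CT+IFN-γ and IFN-γ on the log2(FPKM + 1) scale (horizontal axis) for each chemokine gene (vertical axis) with the deposited values (circles), after median-ratio scaling (squares) and after quantile normalization (triangles), filled for an adjusted p under 0.05. CXCL10, CCL2 and CX3CL1 keep their sign and their call in all 3, while CXCL16, CXCL1, CXCL2 and CXCL3 change sign in at least 1.

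Of 33 other chemokine ligands 10 had a row and 2, CXCL8 and CCL28, reached 1 FPKM in a group. CXCL8, the best known neutrophil attractant and a neighbour of CXCL1 on chromosome 4, was 24.5, 23.6 and 20.1 FPKM in the controls and 9.92, 10.3 and 10.3 with IFN-γ. Of the 10 ligands, CXCL8 was the single one called with IFN-γ, where 8.46% of all genes were higher and 11.0% lower. It fell by 1.08 on the log2 scale (SE 0.08, adjusted p = 0.000427), and CXCL1 showed no such fall. The CXCL1 to CXCL8 ratio was accordingly 1.72, 1.84 and 2.19 in the controls and 4.41, 3.94 and 4.02 with IFN-γ. SB-3CT gave 22.2, 20.5 and 23.2 FPKM of CXCL8, a difference of -0.05 (adjusted p = 0.767). SB-3CT with IFN-γ gave 13.4, 14.9 and 15.4, all above IFN-γ alone (0.47, SE 0.07, adjusted p = 0.00285). Thus CXCL8 rose with SB-3CT in the presence of IFN-γ, as did CXCL10 and CCL2, and its interaction was 0.52 (adjusted p = 0.0091). CCL3, an inflammatory CC chemokine with near-identical gene copies, was under 1 FPKM throughout and was 0.44 higher in SB-3CT+IFN-γ than in IFN-γ (adjusted p = 0.00442). CCL28, a ligand of CCR10, was 0.29 lower with SB-3CT than in Control (adjusted p = 0.0474), a call lost under 9 alternatives including median-ratio scaling (adjusted p = 0.0508). CCL17 was listed at 0 in 7 samples and was called lower in SB-3CT+IFN-γ than in IFN-γ at -0.23 (adjusted p = 0.0411), a call lost under 8 alternatives including median-ratio scaling (adjusted p = 0.0664).

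The chemokine receptors with a row were barely expressed. Of 26 listed symbols, which include older names of ACKR1, ACKR2, ACKR3 and ACKR4, 10 had a row. Of these 10, 0 reached 1 FPKM in any group, and their sum was between 0.611 and 1.59 FPKM per sample. Receptors without a row, CXCR3 among them, were not analysed here, so their level is not known. The CXCL16 receptor CXCR6 had at most 0.0633 FPKM and the CXCL1 receptor CXCR2 at most 0.141 FPKM. IFN-γ raised 2 of the 10, where 8.46% of all genes were higher. These were CCRL2, a non-signalling receptor that holds chemerin (0.28, adjusted p = 0.00926), and ACKR4, a scavenger of CC chemokines (0.28, adjusted p = 0.0358). The ACKR4 call was lost without 5 of the 6 samples, each left out in turn, with adjusted p up to 0.116 (without Control replicate 3). In limma SB-3CT changed 0 of these 10 receptors with or without IFN-γ, and at an unadjusted p under 0.05 it gave 0 without IFN-γ and 1 higher and 2 lower with it.

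Of 9 listed proteases that release or trim chemokines, 8 had a row, with 3 higher and 1 lower after IFN-γ, 2 higher and 2 lower after SB-3CT, and 1 higher and 2 lower in SB-3CT+IFN-γ against IFN-γ, the comparisons whose shares over all genes are given above (31.5% lower for the last). ADAM10, the main constitutive sheddase of CXCL16 and CX3CL1, was 25.0, 22.4 and 22.1 FPKM with IFN-γ and 12.9, 14.5 and 13.4 with SB-3CT and IFN-γ. Its difference was -0.73 (SE 0.07, adjusted p = 0.00207). ADAM17, the sheddase induced by phorbol esters, was 11.3, 10.1 and 10.5 FPKM with IFN-γ and 6.70, 7.03 and 7.27 with both (-0.54, adjusted p = 0.00236), and both genes remained lower under the other scalings, at -0.50 and -0.33 after median-ratio scaling. SB-3CT without IFN-γ gave -0.41 for ADAM10 (adjusted p = 0.0354) and -0.35 for ADAM17 (adjusted p = 0.0214), and each of these calls was lost without 5 of the 6 samples, left out in turn, with adjusted p up to 0.143 for ADAM10 (without SB-3CT replicate 3) and 0.0877 for ADAM17 (without Control replicate 2). ANPEP, an aminopeptidase, was 0.30 higher with SB-3CT than in Control (adjusted p = 0.0158), a call lost under the replicate block (0.0518) and without 4 of the 6 samples in turn (up to 0.0769, without SB-3CT replicate 3). CTSS, a cysteine protease of antigen processing, rose from 0.871 ± 0.189 to 42.6 ± 1.3 FPKM with IFN-γ (SD, n = 3) and was 48.0 ± 3.18 with both. CTSL, another lysosomal cysteine protease, was 96.1, 132, 123 and 160 FPKM in mean in Control, SB-3CT, IFN-γ and SB-3CT+IFN-γ, and it rose in all 4 comparisons by between 0.28 and 0.45, though the call with IFN-γ was lost without 3 of the 6 samples in turn (adjusted p up to 0.0626, without Control replicate 3).

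Lists of IFN-γ-linked and NF-κB-linked genes, written by hand and not published, put the members beside their presumed routes. They were chosen with earlier results of these data known, so their counts describe the lists and are no independent check. Of 34 IFN-γ-linked genes with a row, 33 rose and 0 fell with IFN-γ, where 8.46% of all genes were higher and 11.0% lower. The counts were the same at an unadjusted p under 0.05. The median was 2.27, led by BST2 (6.55, tetherin) and C1S (5.14, a complement protease). In SB-3CT+IFN-γ against IFN-γ, 26 fell and 0 rose (28 and 2 at an unadjusted p under 0.05), where 31.5% of all genes were lower and 6.41% higher. Their median was -0.50, and that of all genes -0.09. Under median-ratio scaling 20 fell and 3 rose, where 16.5% of all genes were lower and 15.5% higher. The lowest were DDX58 (-0.98, the RNA sensor RIG-I) and DTX3L (-0.93, a ubiquitin ligase). Of the IFN-γ-raised members, CX3CL1 fell as these did, while CXCL10 and CCL2 rose. Of 16 NF-κB-linked genes with a row, 8 rose and 0 fell with IFN-γ (9 and 1 at an unadjusted p under 0.05, and 5 higher without Control replicate 1), where 8.46% of all genes were higher, with a median of 0.31 led by the macrophage growth factor CSF1 (2.91) and the survival gene BCL2A1 (2.15). In SB-3CT+IFN-γ against IFN-γ, 7 fell and 0 rose (7 and 2 unadjusted), where 31.5% of all genes were lower, with CYLD (-0.56, a deubiquitinase that restrains NF-κB) and BIRC2 (-0.51) lowest, and 3 fell and 2 rose under median-ratio scaling. The number that fell was 4 without IFN-γ replicate 3 or without SB-3CT+IFN-γ replicate 3. SB-3CT without IFN-γ changed 0 of the 16 (3 higher and 1 lower unadjusted) and raised 1 and lowered 1 of the 34, APOL3 (0.31) and AIM2 (-0.70). Of all genes, 5.37% were higher and 6.87% lower there. APOL3 was not called under 8 alternatives. Among these, the filter at 1 FPKM drops the gene untested, and 4 leave out a sample (Control replicate 2 or 3, SB-3CT replicate 2 or 3). Of the 16, 2 were higher under median-ratio scaling or quantile normalization and 3 with a filter at 1 FPKM.

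**Figure D5:**
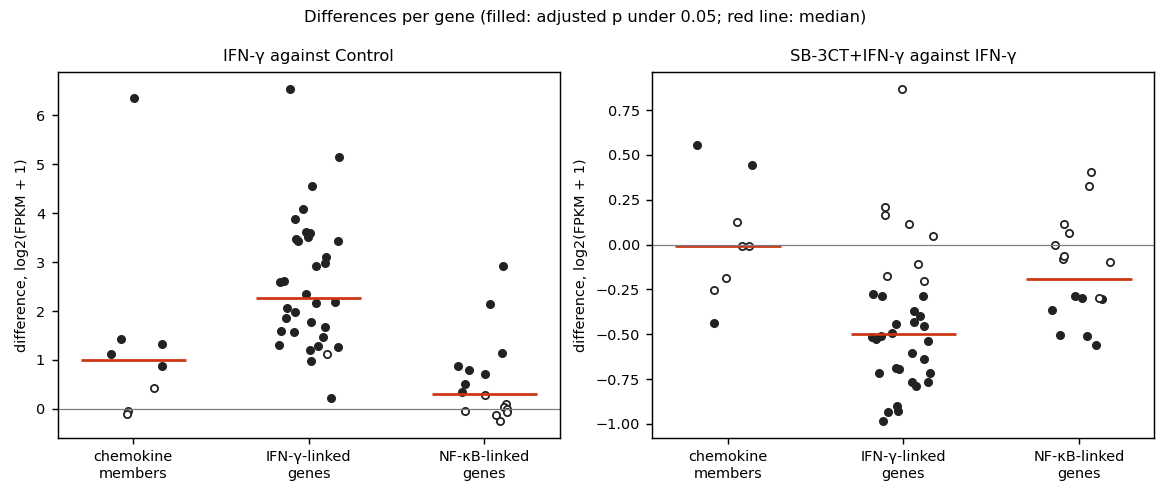
Differences on the log2(FPKM + 1) scale (vertical axis) of each gene of 3 groups, the 8 chemokine members, 34 IFN-γ-linked and 16 NF-κB-linked genes (horizontal axis), in IFN-γ against Control and in SB-3CT+IFN-γ against IFN-γ, with filled points for an adjusted p under 0.05 and a line at the median. In the second panel the medians are -0.01, -0.50 and -0.19, and chemokine points stand on both sides of 0.

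Across the 12 samples, which share their 4 groups so that any gene moved by IFN-γ correlates with any other, the log2 values of CXCL10 ran with those of CCL5 (Pearson r = 0.995) and CXCL16 (r = 0.976), and CXCL1 ran with CXCL3 (r = 0.751). CXCL10 against CXCL3 gave r = -0.785. Among 3290 genes of at least 1 FPKM in a group, the genes most like CXCL10 were CTSS (r = 0.999), CD7 (r = 0.998) and APOBEC3G (r = 0.998), and CTSS, APOBEC3G and CD7 were also the closest to CCL5. CSF1, APOL6 and CEACAM1 came closest to CXCL16 (r = 0.994 for all 3), and ATP10A, DDX60L and DTX3L to CX3CL1 (r between 0.99 and 0.992). CCL2 was followed by CLEC2B (r = 0.959), DYNLT1 and C1GALT1C1. The CXCR2 ligands had looser companions, CENPT, CTNS and FAM134A for CXCL1 (r up to 0.926), CFLAR for CXCL2 (r = 0.932) and DDB2 for CXCL3 (r = 0.933). These correlations describe the groups and carry no test.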

How the data were processed

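Total RNA of 12 A375 samples was sequenced with paired-end reads. Per the submitters' processing notes, reads were aligned to hg19 with HISAT2 2.0.5 and expression was calculated with StringTie 1.3.3. The authors deposited these FPKM values on a scale that was read as log2(FPKM + 1), and the log2 step itself is not described in the sources used here. Undoing that step gave sums between 121928 and 129692 per sample. These sums cover only a part of all genes, so they do not settle the scale. The table used here held 4918 genes, sorted by symbol and ending at FAM46B, and MMP2 and MMP9 were not analysed here. Its columns named NC were read as the Control samples.

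Comparisons were fitted in R 4.3.3 by limma 3.58.1 (empirical Bayes with a variance trend) on the deposited log2 values of the 3 + 3 samples, the interaction on all 12, with no further scaling, and p-values were adjusted by the Benjamini-Hochberg method over 4918 genes at a threshold of 0.05. SE denotes the moderated standard error. The model code was tested on simulated data. The members and lists were chosen with earlier results of these data known. The text names every member, for each member the 3 genes of highest correlation, and of the other lists called genes, the 2 largest rises and falls of the longer lists included. CXCR2 and CXCR6 were added as receptors of members, and ART3 because it overlaps CXCL10. Alternatives were median-ratio scaling over genes of at least 1 FPKM, quantile normalization, a pseudocount of 0.1, a filter at a mean of 1 FPKM, a single fit of all 12 samples, a replicate block, eBayes without trend or robust, and leaving out each sample. Relative depth was taken from the most common ratio of values under 0.3 FPKM between samples, which for 65 of 66 pairs of samples lay within 0.01 log2 of the depths given. No counts were given, so no counting interval could be computed. Gene positions came from GENCODE on hg19 and promoters from RefSeq on GRCh38.p14.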

Additional observations from a re-analysis of the deposited data

Results flagged for a closer look

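The effect of SB-3CT differed between cells with and without IFN-γ for 6 members, by the interaction term of limma over 12 samples with adjustment over all genes. The difference was 0.84 for CCL2 (adjusted p = 0.0154) and 0.47 for CXCL10 (adjusted p = 0.0159), -0.45 for CXCL3 (adjusted p = 0.0249), -0.36 for CXCL1 (adjusted p = 0.0208), -0.34 for CXCL16 (adjusted p = 0.036) and -0.27 for CX3CL1 (adjusted p = 0.0438). CXCL10 was listed at 0 in 5 of the 6 samples without IFN-γ, so that its interaction rests on the IFN-γ groups. The sign for CX3CL1 depends on the scale, since limma with a pseudocount of 0.1 in place of 1 gave 0.11 (adjusted p = 0.838). The FPKM ratio of CX3CL1 was 0.316 for SB-3CT against Control and 0.574 for SB-3CT+IFN-γ against IFN-γ. The 4 negative values stand beside a median interaction of -0.19 over the 3177 genes of at least 1 FPKM, and 0 of them were called after median-ratio scaling or quantile normalization. The part of this shift in them was not tested.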

How the results depend on the processing

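Of 590 recomputed values for single genes, 514 kept their direction and side of the threshold, 44 lost a call, 11 gained a call and 21 changed sign. Members called higher with IFN-γ numbered between 4, with a filter at 1 FPKM that drops CX3CL1, and 6, with a robust prior or without Control replicate 2, which add CXCL2. For SB-3CT+IFN-γ against IFN-γ, median-ratio scaling gave 0.031 for CXCL16, 0.23 for CXCL1 and 0.12 for CXCL2, and 4 members higher, and quantile normalization gave 0.062, 0.089 and 0.18, with 0.0055 for CXCL3. Members lower there were 2 with a filter at 1 FPKM or a single fit of all samples and 3 without the variance trend. Members lower against SB-3CT were 1 under both scalings. For CXCL1 with IFN-γ, median-ratio scaling gave 0.0036. In the interaction, members lower were 0 under both scalings, CXCL2 was 0.0087 and 0.034, and CX3CL1 was 0.11 with a pseudocount of 0.1. Leaving out each sample gave -0.069 to 0.064 for CCL5 and -0.024 to 0.32 for CXCL2 with SB-3CT, and -0.045 to 0.031 for CXCL1 and -0.13 to 0.12 for CXCL2 in SB-3CT+IFN-γ against IFN-γ. It gave -0.33 to 0.016 for CXCL2 in the interaction. Member counts ranged from 0 to 1 higher and 0 to 1 lower with SB-3CT, 1 to 2 higher and 1 to 2 lower in SB-3CT+IFN-γ against IFN-γ, and 1 to 3 lower in the interaction. The cause of these changes was not tested. Same-numbered samples correlated in their deviations at between -0.39 and 0.17, so the numbers were not taken as pairs. Leaving out a sample moved the genes called for SB-3CT against Control from 602 to between 73 and 88 in 5 of 6 cases and to 912 without SB-3CT replicate 1, and for IFN-γ against Control from 958 to between 562 and 596 without Control replicate 1, 2 or 3 or IFN-γ replicate 3. SB-3CT+IFN-γ against IFN-γ went from 1862 to 1230 without IFN-γ replicate 3. A replicate block moved the genes called from 602 to 259 for SB-3CT against Control, and CX3CL1's interaction to adjusted p = 0.0503. A filter at 1 FPKM gave 907 for SB-3CT and median-ratio scaling 1204 against 1994 for SB-3CT+IFN-γ against SB-3CT. With 3 samples a group and no counts, differences in genes under 1 FPKM, CX3CL1, CCL5 and CXCL2 among them without IFN-γ, are compressed and carry an unknown counting error.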
